A study of Mus musculus with 12 samples.

Results

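The genes described here are 9 enzymes that build sialyl Lewis X and its sulfated form on mucin-type glycoproteins: Gcnt1, B3gnt3, B4galt1, Chst4, Chst2, St3gal4, St3gal6, Fut7 and Fut4. They were taken by symbol from the deposited gene lists, and all 9 were present among the 32285 genes listed. The data were 12 droplet single-cell RNA libraries of mouse lymph node, 1 for each combination of genotype label, treatment and sorted fraction. All mice were C57BL/6, were 7 to 10 weeks old, carried Atg12 fl/fl and had received 5 doses of tamoxifen. They were labelled positive or negative for CDH5 CreER, a tamoxifen-activated recombinase driven by an endothelial promoter. Oxazolone, a skin-contact sensitiser, was applied to the abdomen at 4%, and nodes were taken 3 or 7 days later. Vehicle mice received the acetone and olive oil solvent alone. The 6 libraries depleted of CD45-bearing cells are called the CD31 libraries, and the 6 libraries of the cells held by CD45 beads the CD45 libraries. Each group was a single library, and whether a library pooled several animals is not given in the labels.

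High endothelial venules (HEVs) are the post-capillary venules of lymph nodes through which lymphocytes leave the blood. Their walls carry mucins such as Glycam1 whose O-glycans end in sulfated sialyl Lewis X, the sugar that L-selectin on lymphocytes binds. The glycan is built in steps: Gcnt1 starts the core 2 branch and B3gnt3 the extended core 1 branch, B4galt1 adds galactose, Chst4 and Chst2 place sulfate on N-acetylglucosamine, St3gal4 and St3gal6 cap galactose with sialic acid, and Fut7 and Fut4 add fucose. Activated T cells and myeloid cells use several of the same enzymes to make ligands for P- and E-selectin.

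The reference promoter windows of the members whose levels differ most between endothelial classes are shown for context. They come from RefSeq on GRCm38.p6, and are the longest run, among the 250 bases before the annotated start, that lies in no GENCODE M21 exon. For Gcnt1, which has several annotated starts, the most upstream was used. Each is printed on the gene's strand, in lower case, with capitals marking a match to 1 of 5 motifs on either strand.
Chst4, chr8:110039378-110039423, minus strand: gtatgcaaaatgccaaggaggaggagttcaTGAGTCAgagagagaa
Fut7, chr2:25422992-25423241, plus strand: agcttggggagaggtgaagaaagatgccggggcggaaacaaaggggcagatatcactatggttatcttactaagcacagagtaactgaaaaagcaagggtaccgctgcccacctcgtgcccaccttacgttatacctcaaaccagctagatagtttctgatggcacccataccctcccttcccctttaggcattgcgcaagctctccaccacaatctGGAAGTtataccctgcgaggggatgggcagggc
Gcnt1, chr19:17372845-17373094, minus strand: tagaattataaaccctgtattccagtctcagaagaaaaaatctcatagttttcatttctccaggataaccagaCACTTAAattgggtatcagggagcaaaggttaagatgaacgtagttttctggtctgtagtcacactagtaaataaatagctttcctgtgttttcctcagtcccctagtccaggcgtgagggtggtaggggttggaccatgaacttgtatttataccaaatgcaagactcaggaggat
Chst2, chr9:95407271-95407460, minus strand: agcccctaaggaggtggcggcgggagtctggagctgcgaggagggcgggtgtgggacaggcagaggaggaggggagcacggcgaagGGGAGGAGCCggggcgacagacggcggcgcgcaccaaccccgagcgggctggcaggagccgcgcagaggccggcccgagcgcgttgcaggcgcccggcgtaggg

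All 9 members had a RefSeq window of 300 bases, 250 before and 50 after the start, and 13 windows in all. AGGTCA, the half-site of many nuclear receptors, was in none of the 13 windows, against 16.3% of all 32851 RefSeq windows of that length. A loose NF-kB motif, the letters in capitals in the Chst2 window with any bases at its middle positions, was in 3 windows (Chst2, B3gnt3 and 1 of St3gal6) and in 20.7% of all windows. TTAAGTG, the core of the NKX2 site, was in 1 window of Gcnt1 and in 2.41% of all windows. TGANTCA, the AP-1 site, was in the Chst4 window and in 7.81% of all windows. GGAAGT, an ETS-type site, was in 4 windows (2 of Gcnt1, 1 of St3gal6 and 1 of Fut7) and in 23.8% of all windows. The last 2 motifs were chosen after the windows had been read, the matches do not overlap, and a match describes letters only. These libraries carry no measurement of binding or of chromatin.

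The CD31 libraries yielded 2827 HEV-like cells, 20087 other blood endothelial-like cells, 4772 lymphatic endothelial-like cells and 14619 leukocytes. The CD45 libraries yielded 33753 leukocytes, and their 5611 fibroblast-like cells were kept apart. Deposited totals ran from 36724887 to 76186801 UMIs per library, and any pair of libraries shared 0.111% to 0.38% of the cell barcodes of the smaller one. Of the 5 markers set for HEV-like cells, Glycam1, Enpp2, Spns2 and Ch25h averaged over 10 CPM (UMI counts scaled to a common total in each class and library), and Madcam1 did not, at 0.562 to 11.7 CPM. The same 4 did so in the other blood endothelial-like cells. Glycam1 was there at 38.4 to 188 CPM, against 12600 to 76200 CPM in HEV-like cells. Ch25h was at 11.8 to 57.6 against 101 to 191 CPM. Enpp2 and Spns2 overlapped between the classes, at 504 to 1340 against 1170 to 2630 CPM and 69.9 to 99.2 against 81.5 to 104 CPM. For Atg12, whose alleles are floxed, Cre-positive labels did not go with lower counts. In HEV-like cells it was at 44.8, 44.3 and 43.5 CPM in those labelled Cre-negative at vehicle, day 3 and day 7, and at 54.0, 51.3 and 44.6 CPM in those labelled Cre-positive. The tags come from transcript ends and may lie outside the deleted part, so this does not check the labels. Summed T cell markers were at 3.8 to 30.5 CPM in HEV-like and 4.07 to 7.02 CPM in other blood endothelial-like cells, and summed B cell markers at 8.36 to 65.9 and 6.1 to 12.8 CPM. The part of such lymphocyte RNA in the results was not tested. The day 3 CD31 library labelled Cre-positive stands apart, since 2342 of its cells fell, with other low-UMI cells, into a cluster that could not be named and that enters no class.

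In HEV-like cells 7 of 8 enzymes tested were higher than in the other blood endothelial-like cells, a class made of capillary-like, arterial-like and venous-like cells and a remaining group with pan-endothelial markers alone. The ninth, Chst4, passed the filter on low counts only through the HEV-like sums, so it is given as a ratio with no test. Fut7 and Gcnt1 were more than 30-fold higher, and the other 5 less than 4-fold. The size of the large differences rests on which cells are called HEV-like. When the members were kept among the genes used for clustering, HEV-like cells numbered 1743 in place of 2827. Fut7 was then at 342 CPM in HEV-like and 34.7 CPM in other blood endothelial-like cells, Gcnt1 at 181 and 9.64 CPM, and Chst4 at 147 and 5.53 CPM. With doublets kept, Fut7 was at 326 and 15.9 CPM. Across all 12990 genes tested, edgeR's quasi-likelihood test with Benjamini-Hochberg adjustment called 63.4%, with 32.3% higher and 31.1% lower in HEV-like cells. The median log2 difference was 0.66 over the 8 members and -0.01 over all genes. Each library gave both sums and was a term of the model, so n = 6 pairs. With 1 library per group, p-values measure the spread between these libraries, and a p that misses the threshold does not show that levels were equal.

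Chst4, a sulfotransferase known for its restriction to high endothelium (ENSMUSG00000035930, GRCm38 chr8:110029153-110039740), was at 93.5 and 112 CPM in HEV-like cells at vehicle, labelled Cre-negative and Cre-positive in that order. It was at 162 and 104 CPM at day 3 and at 127 and 79.9 CPM at day 7. In the other blood endothelial-like cells it was at 0.316 to 2.37 CPM in the same libraries. Every HEV-like value lay far above every other value. The other class gave 88 UMIs in 88215935, and the pooled level was 118-fold higher in HEV-like cells (95% interval 95.4 to 147, from counting error only). Among the other endothelial classes, venous-like cells held 30.4 ± 15.5 CPM (SD, n = 6) and cycling endothelial-like cells 17.7 ± 11.7 CPM. HEV-like cells exceeded venous-like cells, and venous-like exceeded cycling endothelial-like cells, in 6 of 6 libraries each, which is a description, since the order was read from the same values. Capillary-like and arterial-like cells stood at 0.492 and 0.379 CPM.

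Free RNA, read from barcodes with 10 to 100 UMIs, held 3.61 to 48.2 CPM of Chst4 in the CD31 libraries. Judged by lymphocyte genes, it made up 1.58% to 2.54% of the UMIs of the other blood endothelial-like cells. By the same measure the share was larger in leukocytes of these libraries, at 5.18% to 9.31%. In HEV-like cells it ran from 1.67% at day 3 to 13% at vehicle, both in libraries labelled Cre-negative. With free RNA subtracted, Chst4 in the other blood endothelial-like cells averaged 0.671 CPM in place of 1.04 CPM. The part of free RNA in the rest of these levels was not tested, and no expression is read from them.

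Chst2, a second sulfotransferase of the same step (ENSMUSG00000033350, chr9:95399292-95406722), was far less restricted. HEV-like cells held 169 and 193 CPM at vehicle, 178 and 138 CPM at day 3, and 195 and 174 CPM at day 7. The other blood endothelial-like cells held 50.3 to 89.2 CPM. The 2 ranges did not overlap, and the log2 difference was 1.76 (SE 0.08, adjusted p = 1.77e-09 by edgeR's quasi-likelihood test). Within the latter, Chst2 was at 94.8 ± 9.87 CPM in the remaining group, 13.0 ± 0.881 CPM in capillary-like cells and 4.67 CPM in arterial-like cells. The gap between HEV-like cells and that remaining group, the next in the order, was 0.87 on the log2 scale and held in 6 of 6 libraries.

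Fut7, the fucosyltransferase that completes sialyl Lewis X (ENSMUSG00000036587, chr2:25423267-25426374), was at 358 and 355 CPM in HEV-like cells at vehicle. It was at 262 and 197 CPM at day 3, and at 377 and 351 CPM at day 7. The other blood endothelial-like cells held 4.25 to 16.3 CPM. The log2 difference was 5.52 (SE 0.13, adjusted p = 1.01e-11 by edgeR's quasi-likelihood test), with HEV-like cells higher in 6 of 6 libraries. Cycling endothelial-like cells held 73.8 ± 57.9 CPM, venous-like cells 18.0 ± 11.2 CPM and the remaining group 12.7 ± 5.26 CPM. Within the remaining group the cluster led by Fosb and Atf3 stood at 20.5 CPM and the one led by Penk and Esm1 at 1.49 CPM.

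Gcnt1, which makes the core 2 branch (ENSMUSG00000038843, chr19:17326141-17372844), was at 124 and 198 CPM in HEV-like cells at vehicle. It was at 142 and 80.6 CPM at day 3, and at 199 and 109 CPM at day 7. The other blood endothelial-like cells held 3.59 to 5.81 CPM, and among them venous-like cells stood at 23.3 CPM, arterial-like cells at 15.3 CPM and the remaining group lowest but for capillary-like cells. The HEV-like values spread more than 2-fold, but none came near the others. The log2 difference was 5.25 (SE 0.13, adjusted p = 1.87e-11 by edgeR's quasi-likelihood test).

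St3gal6, St3gal4 and B3gnt3 were held by each blood endothelial class. St3gal6 (ENSMUSG00000022747, chr16:58468125-58524243) was at 299 to 477 CPM in HEV-like cells and 231 to 342 CPM in the others, a log2 difference of 0.71 (SE 0.06, adjusted p = 7.85e-07). St3gal4 (ENSMUSG00000032038, chr9:35046576-35119268) was at 194 to 279 CPM against 173 to 216 CPM, a log2 difference of 0.61 (SE 0.07, adjusted p = 1.43e-05), with 5 of 6 libraries higher in CPM. B3gnt3 (ENSMUSG00000031803, chr8:71690756-71701789) was at 37.1 to 54.2 CPM against 32.4 to 42.7 CPM, a log2 difference of 0.57 (SE 0.06, adjusted p = 3.14e-06). All 3 ranges overlapped, although within a library the HEV-like value was the higher one throughout for St3gal6 and B3gnt3. Pooled over libraries, venous-like cells held 76.25 CPM of B3gnt3, 299.9 CPM of St3gal4 and 258.1 CPM of St3gal6. HEV-like cells held 45.18, 232 and 374.6 CPM in that order. Clusters of the remaining group held 22.79 to 41.21 CPM of B3gnt3, 232.5 to 247.6 CPM of St3gal4 and 284.9 to 373.2 CPM of St3gal6. The capillary-like clusters held 34.46 to 35.59, 37.89 to 72.06 and 163.6 to 211.1 CPM.

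Fut4, the second fucosyltransferase (ENSMUSG00000049307, chr9:14748320-14752393), was at 10.3 to 17.7 CPM in HEV-like cells and 7.28 to 19.5 CPM in the others. Among these it was at 18.0 ± 4.58 CPM in the remaining group, 4.26 ± 1.59 CPM in arterial-like and 1.54 ± 0.93 CPM in capillary-like cells (SD, n = 6), and venous-like cells gave 1 UMI. Its log2 difference of 0.41 (SE 0.11, adjusted p = 0.00723 by edgeR's quasi-likelihood test) rested on the choice of comparison. It was -0.17 (adjusted p = 0.126) against the remaining group alone, without capillary-, arterial- and venous-like cells. At a Leiden resolution of 2, where only the 1471 cells of a Glycam1-high group, which held less Fut4 than the Glycam1-low group, were called HEV-like, it was 0.27 (adjusted p = 0.123). B4galt1 (ENSMUSG00000028413, chr4:40804602-40854005), the galactosyltransferase, was at 41.9 to 65.0 CPM in HEV-like cells and 65.4 to 75.6 CPM in the others, lower in 6 of 6 libraries in CPM. Its log2 difference was -0.07 (SE 0.07, adjusted p = 0.456).

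The sizes of the small differences depend on how libraries were scaled. Scaling to the total count instead of by trimmed means (TMM) moved the median of all genes by 0.31 on the log2 scale, and calls became 2293 higher and 6827 lower, against 4201 and 4038. Under it Fut4 had a log2 difference of 0.10 (adjusted p = 0.51) and B4galt1 of -0.37 (adjusted p = 0.00184), while the other 6 members kept their calls. Against the remaining group alone the log2 differences with TMM were 4.94 for Fut7, 6.09 for Gcnt1, 1.14 for Chst2, 0.41 for St3gal6, 0.23 for St3gal4 and 0.55 for B3gnt3. This comparison was not run with total-count scaling. In pooled CPM, HEV-like cells held no more St3gal4 than the clusters of that group, at 232 against 232.5 to 247.6. For St3gal6 the values were 374.6 against 284.9 to 373.2, and for B3gnt3 45.18 against 22.79 to 41.21.

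**Figure D1:**
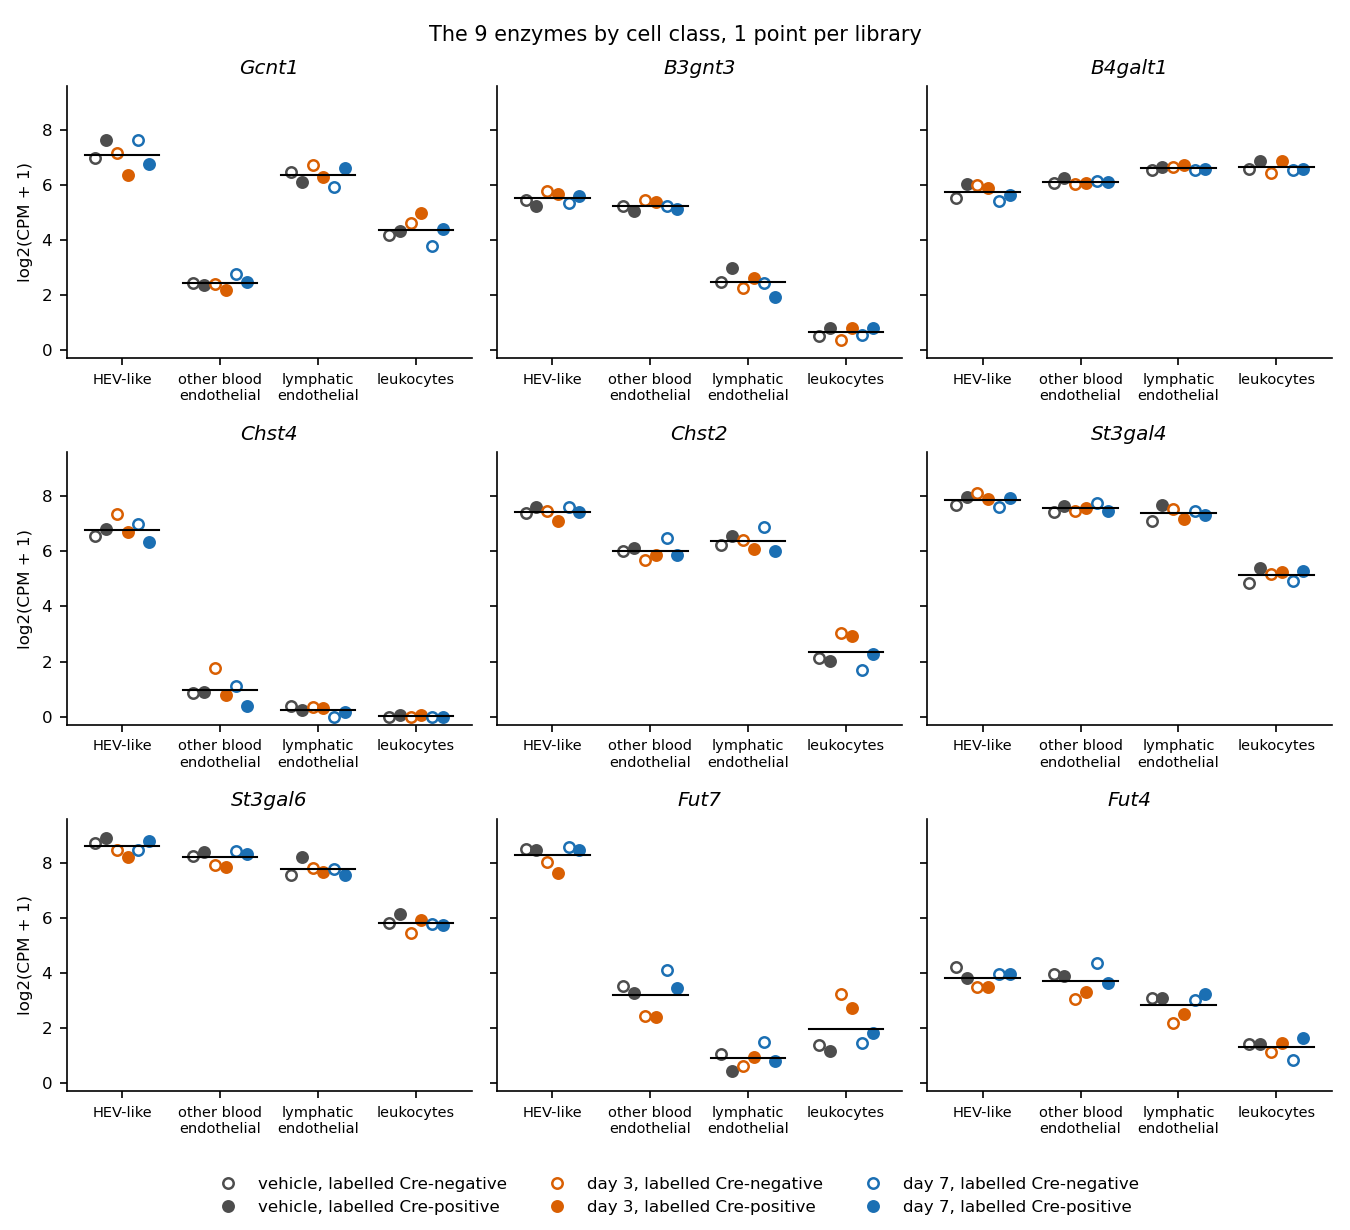
Level of each enzyme as log2(CPM + 1), vertical axis, in HEV-like, other blood endothelial-like and lymphatic endothelial-like cells of the 6 CD31 libraries and in leukocytes of the 6 CD45 libraries; each point is 1 library and the bar is the mean of the 6. Chst4 and Fut7 separate HEV-like cells from every other set, Gcnt1 is also high in lymphatic endothelial-like cells, and B4galt1 is lowest in HEV-like cells among these 4 sets.

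For Fut7, Chst4 and Gcnt1, shares of cells at equal depth gave the order of the CPM. With each cell thinned to 1000 UMIs, 23.8% ± 5.84 (SD, n = 6) of HEV-like cells had a Fut7 UMI. In the other blood endothelial-like cells the share was 0.640%, and in B cells of the CD45 libraries 0%. For Chst4 the shares were 8.46% ± 2.35 and 0.0666%, and for Gcnt1 12.3% ± 3.67 and 0.421%. For Fut4 the thinned shares, 1.28% ± 0.451 and 1.08% ± 0.593, lay within their spread of each other, and no order is read from them. Before thinning, 70.6%, 39.8% and 50.9% of HEV-like cells had a UMI of Fut7, Chst4 and Gcnt1, at a median depth of 8761 to 10886 UMIs per library. B cells, with a median of 2504 to 4272 UMIs, had 0.0068% for Fut7 and 0.0086% for Chst4. Single HEV-like cells often carried several members: 78.2% to 92.0% had UMIs of 3 or more of the 9 per library, and 7.27% to 13.6% did after thinning. In the other blood endothelial-like cells these shares were 17.7% to 29.8% and 0.693% to 2.40%.

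Levels also differed among HEV-like cells. At a finer clustering, which did not use the members, they held a Glycam1-high group of 1471 cells and a Glycam1-low group of 1153 cells, both found in each of the 6 libraries. The other 203 cells, 3.90% to 12.3% of a library's HEV-like cells, fell in neither group. This division was chosen after seeing the data, and a value between clusters of the same cells is a description without a test. Chst4 was at 165 ± 23.9 CPM in Glycam1-high and 30.9 ± 7.40 CPM in Glycam1-low cells, and Gcnt1 at 190 ± 55.5 and 59.9 ± 23.6 CPM (SD, n = 6). Fut7 was at 375 ± 69.0 and 241 ± 92.5 CPM, and Chst2 at 191 ± 20.1 and 151 ± 19.2 CPM.

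These 4 were higher in the Glycam1-high group in 6 of 6 libraries, by mean log2 differences of 2.40, 1.70, 0.74 and 0.34. St3gal6 and Fut4 went the other way in 6 of 6, at 352 against 438 CPM and 11.6 against 16.3 CPM. For B3gnt3, B4galt1 and St3gal4 the mean log2 differences were -0.01, -0.03 and -0.15. Glycam1-high cells made up 37.2% to 65.6% of the HEV-like cells of a library and were deeper, with a median of 10900 to 12800 UMIs against 7640 to 9150. Sums for all HEV-like cells therefore also move with this makeup, which is why treatments and labels are given below for each group as well.

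**Figure D2:**
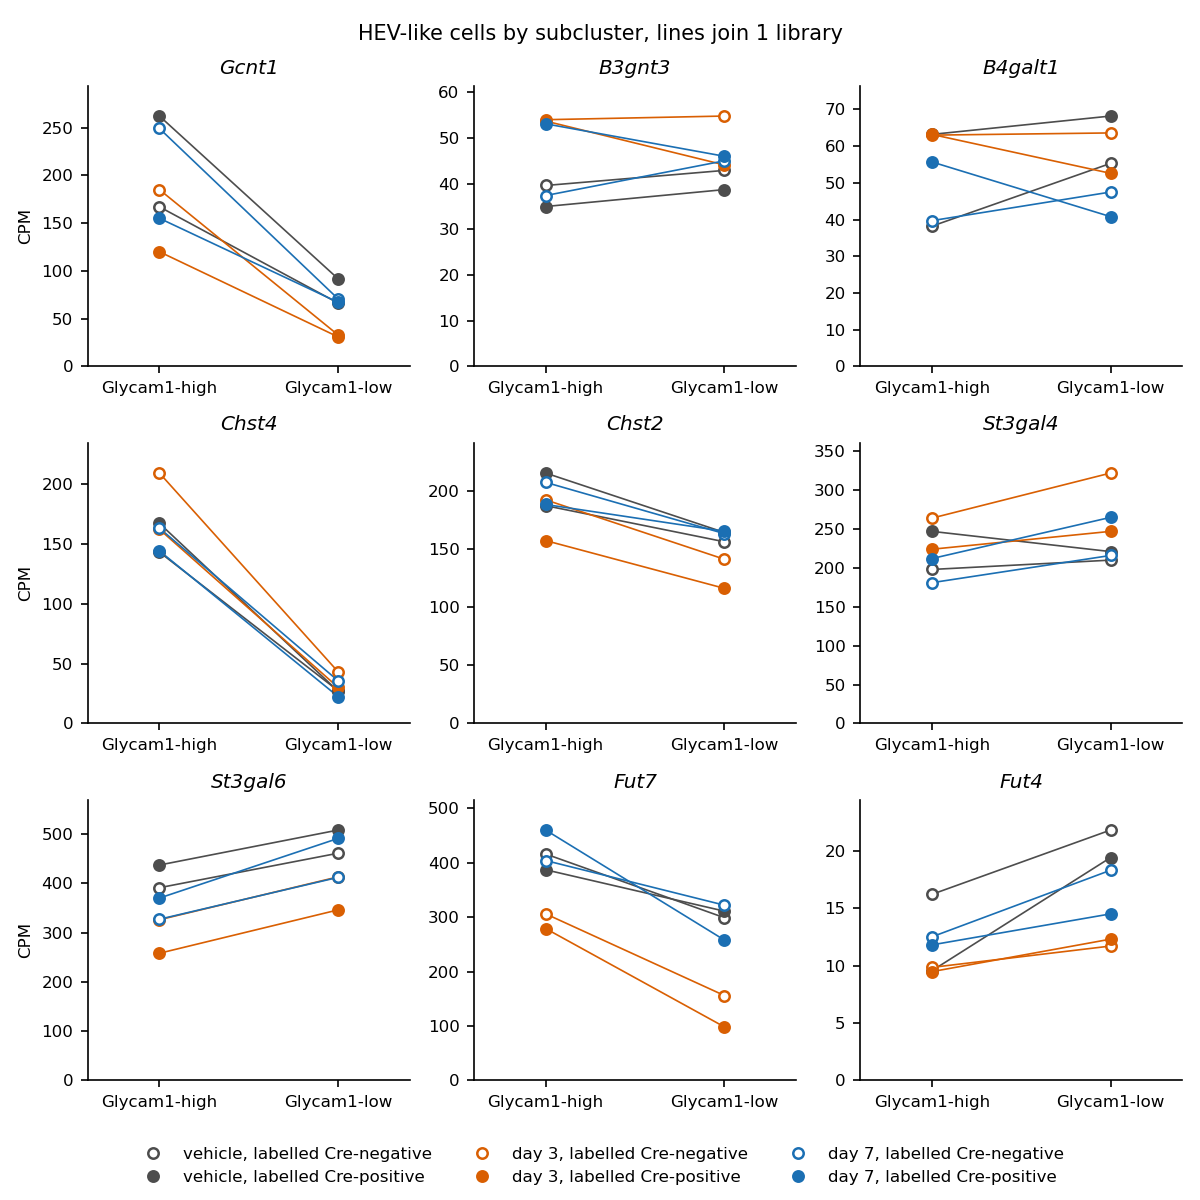
Level in CPM, vertical axis starting at 0, of each enzyme in Glycam1-high and Glycam1-low HEV-like cells, with a line joining the 2 values of a library. All 6 lines fall for Chst4, Gcnt1, Fut7 and Chst2, and all 6 rise for St3gal6 and Fut4.

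Lymphatic endothelial-like cells shared Gcnt1 with HEV-like cells but neither Chst4 nor Fut7. Of 12520 genes tested, edgeR's quasi-likelihood test called 63.9%: 30.9% higher in HEV-like and 32.9% higher in lymphatic endothelial-like cells. Chst4 and Fut7 passed the filter on low counts only through the HEV-like sums and are given as ratios. Of the other 7 members, 6 were higher in HEV-like cells and B4galt1 was lower. Gcnt1 was at 87.9, 67.9, 106, 77.0, 59.4 and 97.9 CPM in lymphatic endothelial-like cells, in the order vehicle, day 3 and day 7 with the library labelled Cre-negative first. These values overlapped those of HEV-like cells, and the log2 difference was 1.09 (SE 0.22, adjusted p = 0.00103), higher in HEV-like cells in 6 of 6 libraries.

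Fut7 was at 0.364 to 1.82 CPM in lymphatic endothelial-like cells, 35 UMIs in all, and the pooled level was 318-fold higher in HEV-like cells (95% counting interval 228 to 457). The ratio rests on the treatment of background: with free RNA subtracted lymphatic Fut7 averaged 0 CPM, and with doublets kept 4.24 CPM, where HEV-like cells held 326 CPM. Chst4 amounted to 6 UMIs in 35655857, and the pooled level was 699-fold higher in HEV-like cells (95% interval 321 to 1910, from counting error only). With free RNA subtracted it averaged 0 CPM, and with doublets kept 1.38 CPM against 127 CPM in HEV-like cells. B3gnt3 was at 2.85 to 6.92 CPM, a log2 difference of 3.62 (SE 0.17, adjusted p = 1.79e-09), and B4galt1 at 92.4 to 105 CPM, a log2 difference of -0.54 (SE 0.08, adjusted p = 8.47e-05). Fut4, Chst2, St3gal6 and St3gal4 were higher in HEV-like cells by 1.41, 1.42, 1.18 and 0.84. Within the lymphatic class the members varied by cluster: Gcnt1 was at 135 CPM in the cluster led by Ackr4 and at 24.0 CPM in the one led by Ccl20 and Bmp2. Chst2 was highest in the latter, at 231 CPM. The Ackr4 cluster made up 43.9% to 72.2% of the lymphatic cells of a library.

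Leukocytes of the CD45 libraries held under 5 CPM of 5 members on average (Chst4, Chst2, Fut7, Fut4 and B3gnt3), and more B4galt1 than HEV-like cells. In this test HEV-like cells and leukocytes come from separate libraries, so that cell class and library cannot be told apart within it. The CD31 libraries also held leukocytes, and within them the order was the same: 8 members were higher in HEV-like cells, and B4galt1 lower, in 6 of 6 libraries. This is a description without a test, and the share of all genes with such an order was not counted. Those leukocytes averaged 0.137 CPM of Chst4, 5.13 CPM of Fut7, 26.1 CPM of Gcnt1 and 92.2 CPM of B4galt1. edgeR's quasi-likelihood test called 76.9% of 14310 genes, 33.9% higher in HEV-like cells and 43% higher in leukocytes. Chst4 and B3gnt3 passed the filter only through the HEV-like sums. Of the other 7 members, 6 were higher in HEV-like cells and B4galt1 was lower, at 84.7 to 117 CPM in leukocytes and a log2 difference of -0.91 (SE 0.10, adjusted p = 4.5e-06). Chst4 gave 2 UMIs in 196838643, and HEV-like cells were 11600-fold higher with a 95% counting interval of 3200 to 95600. That count lies under the floor of 3 UMIs, at which the ratio would be 7720, and 4 of the 6 libraries gave none. Free RNA of the CD45 libraries held up to 2.03 CPM of Chst4. B3gnt3 gave 112 UMIs, a ratio of 79.4 with an interval of 65.4 to 97.2. The log2 differences were 6.68 for Fut7, 5.35 for Chst2, 3.13 for Fut4, 2.80 for St3gal6, 2.76 for Gcnt1 and 2.75 for St3gal4.

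Regulatory T cell-like cells held the most Gcnt1 among CD45 leukocytes, at 67.9 ± 21.5 CPM (SD, n = 6), followed by monocyte or macrophage-like cells at 52.6 ± 13.5, cycling T cell-like cells at 48.0 ± 10.6 and NK cell-like cells at 41.4 ± 19.9 CPM. Neutrophil-like cells, 80 in all, held 49.2 CPM pooled over libraries and are left out of this order. CD4 and CD8 T cell-like cells held 0.246 and 1.81 CPM. Fut7 was highest in cycling T cell-like cells, at 17.0 ± 5.54 CPM, and in T cells led by Cxcr6 and Trdc, at 14.1 ± 7.90 CPM. Among 56 mast cell or basophil-like cells of the CD31 libraries, Fut7 was at 85.7 ± 23.8 CPM and Gcnt1 at 103 ± 28.5 CPM (SD, n = 4).

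Fut4 was highest in migratory dendritic cell-like cells, at 19.4 ± 4.60 CPM, and the same class of the CD31 libraries held 18.0 ± 1.52 CPM there and exceeded HEV-like cells in 6 of 6 libraries. B4galt1 was highest in NK cell-like cells, at 184 ± 16.6 CPM, and St3gal6 was at 215 ± 28.6 CPM in the Cxcr6- and Trdc-led T cells. St3gal4 was at 140 ± 35.2 CPM in monocyte or macrophage-like cells and at 3.97 CPM in B cell-like cells, or 1.52 CPM there with free RNA subtracted. The order within each gene is a description, and neighbours such as Gcnt1 in HEV-like and mast cell or basophil-like cells did not differ beyond their spread (log2 0.14 ± 0.49 SD, with HEV-like cells higher in 2 of 4 libraries).

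**Figure D3:**
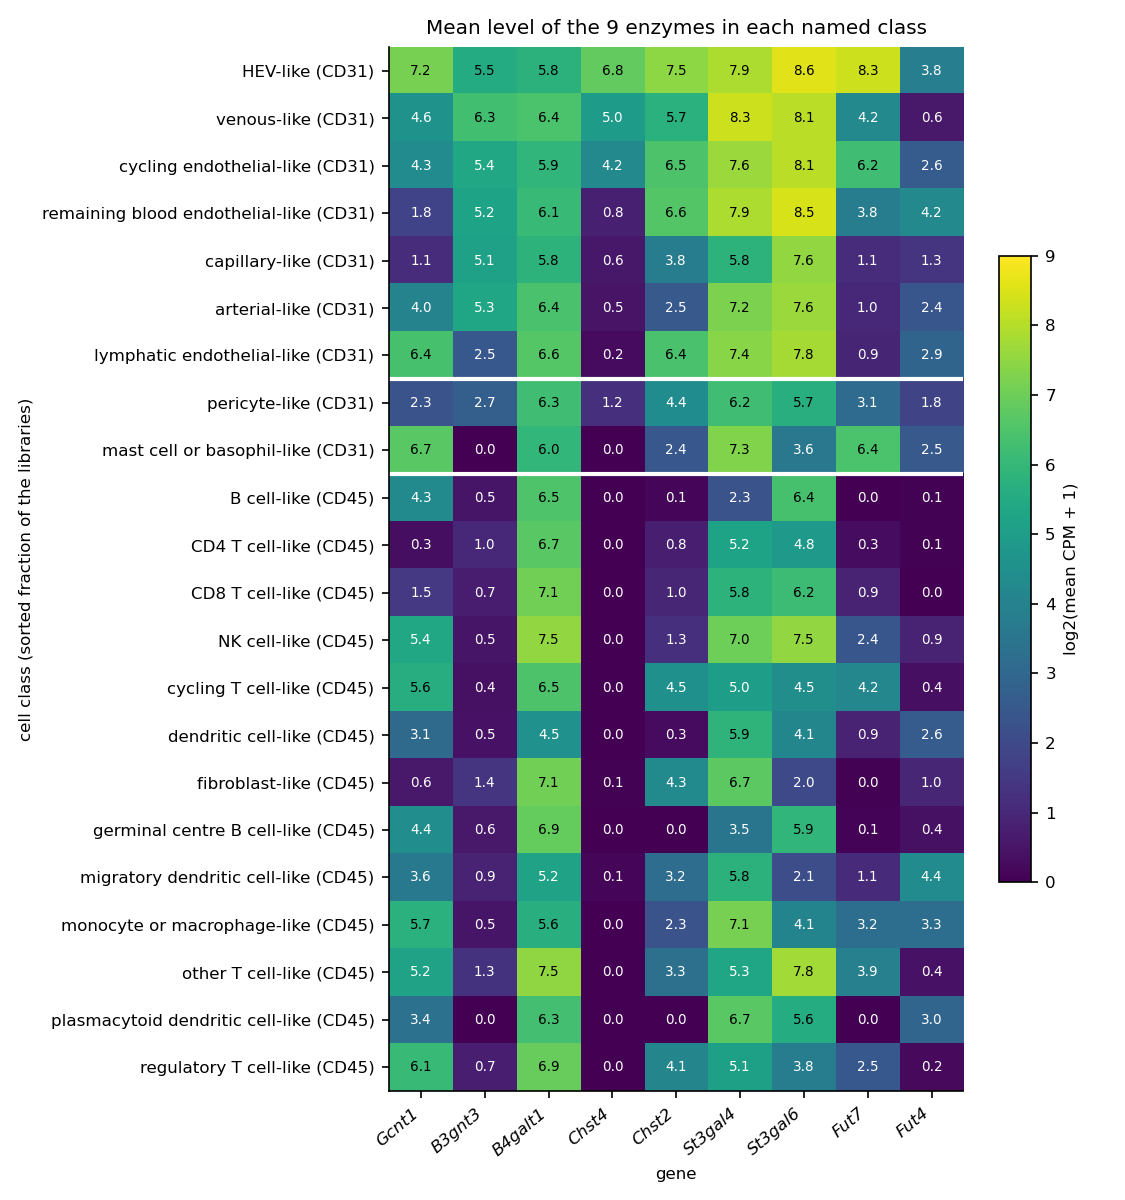
Mean level of each enzyme (columns) in each named class (rows, with the sorted fraction in brackets), as log2(mean CPM + 1) written in each cell and coloured from 0 to 9. Chst4 is bright in HEV-like cells and fades through venous-like and cycling endothelial-like cells, while B4galt1 varies least between rows.

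Summed over leukocytes, Fut7 was highest at day 3, when cycling T cells were most frequent. Over all CD45 leukocytes Fut7 was at 1.57 and 1.21 CPM at vehicle, 8.52 and 5.61 CPM at day 3, and 1.72 and 2.56 CPM at day 7. The day 3 pair was above all others. Cycling T cell-like cells numbered 395 and 238 at day 3 (6.43% and 5.25% of leukocytes), against 36 to 86 in the other 4 libraries. They were deep, with medians of 25008 and 30241 UMIs at day 3. B cell-like cells had 3132 and 4272 UMIs there, and CD8 T cell-like cells 5476 and 7976. The cycling cells' share of all leukocyte UMIs was thus larger than their share of cells, and was not counted. They gave 83.3% and 85.4% of all Fut7 UMIs at day 3. Their own Fut7 level was 24.1 and 21.4 CPM at day 3, 17.8 and 14.4 CPM at vehicle, and 8.34 and 16.1 CPM at day 7. Gcnt1 over all leukocytes was at 17.0 and 19.2, 23.4 and 30.5, and 12.8 and 19.9 CPM in the same order. The cycling cells gave 57.3% and 46.8% of its UMIs at day 3 and 7.87% to 12.0% at vehicle and day 7.

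T cell-like cells, which do not include the cycling ones, had enough counts for 7 members and B cell-like cells for 4. No member was called for label or treatment in either class by edgeR's quasi-likelihood test. The genes called were 0.0883% for label in T cells and 0% for each treatment contrast. In B cells they were 0.00858% for label, 0.0257% for day 3 against vehicle, 0% for day 7 against vehicle and 0.154% for day 7 against day 3. The member with the lowest unadjusted p was B4galt1 for label in B cells, at 102, 121 and 89.9 CPM in libraries labelled Cre-positive and 92.8, 79.8 and 65.2 CPM in those labelled Cre-negative (log2 0.32, SE 0.12, adjusted p = 0.303). It was higher at each treatment, but the groups overlapped.

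With oxazolone, Fut7 was lowest at day 3 in HEV-like cells and in the other blood endothelial-like cells alike. Its day 7 values lay around those of vehicle in HEV-like cells. No member passed the adjusted threshold in the test with genotype and treatment as additive terms, which leaves 2 residual degrees of freedom. In HEV-like cells that test called 1.51% of 11393 genes for day 3 against vehicle, 0% for day 7 against vehicle and 0.693% for day 7 against day 3. For day 7 against vehicle 340 genes had an unadjusted p under 0.05, none of them a member, and DESeq2 also called 0.

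The HEV-like Fut7 values at day 3, 262 and 197 CPM, were below the 351 to 377 CPM of the other 4 libraries with no overlap. The log2 change was -0.66 (SE 0.15, adjusted p = 0.0636) from vehicle to day 3 and 0.72 (SE 0.15, adjusted p = 0.0758) from day 3 to day 7. With DESeq2, which called 293 and 136 of all genes for these contrasts, both changes passed the adjusted threshold. Leaving out a library leaves its treatment with 1, which is then assumed to vary like the other groups, and the model with 1 residual degree of freedom, so a small p there is no stronger evidence. For the first change the adjusted p from edgeR ran from 0.004 to 0.44 when single libraries were left out. It was under 0.05 without the vehicle library labelled Cre-negative (0.004) and without either day 7 library (0.0218 and 0.0383). The second change passed without the vehicle library labelled Cre-negative (0.00158) or the one labelled Cre-positive (0.0012).

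Within the Glycam1-low group Fut7 was at 299 and 311 CPM at vehicle, 156 and 98.4 CPM at day 3, and 322 and 258 CPM at day 7. There the change at day 3 was -1.31 (SE 0.18, adjusted p = 0.00086) and that from day 3 to day 7 was 1.22 (SE 0.18, adjusted p = 0.00207). In the Glycam1-high group the values were 416 and 387, 306 and 279, and 404 and 460 CPM, with a change of -0.50 (SE 0.17, adjusted p = 0.121) at day 3. Both groups held their lowest Fut7 at day 3, and the difference between the groups was not tested. Gcnt1 in the Glycam1-low group, at 66.3 and 91.7, 32.9 and 30.9, and 70.7 and 67.1 CPM, had a change of -1.32 (SE 0.21, adjusted p = 0.00238) at day 3. In that group 6.25% of 9228 genes were called for day 3 against vehicle and 3.73% for day 7 against day 3, against 1.51% and 0.693% over all HEV-like cells. The division was chosen after seeing the data, and at the clustering that made it only the Glycam1-high group was called HEV-like. The p-values within these groups, from fits with 2 residual degrees of freedom, are therefore given as a description.

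In the other blood endothelial-like cells Fut7 was at 10.4 and 8.71 CPM at vehicle, 4.34 and 4.25 CPM at day 3, and 16.3 and 9.86 CPM at day 7. The day 3 pair lay below the others again, with a log2 change of -1.07 (SE 0.23, adjusted p = 0.18) at day 3 and 1.5 (SE 0.23, adjusted p = 0.137) from day 3 to day 7. From vehicle to day 7 it was 0.425 (SE 0.21, adjusted p = 1). No gene was called in any of the 3 treatment contrasts there (0% each of 13843), although 2333, 206 and 2438 had an unadjusted p under 0.05 for day 3 against vehicle, day 7 against vehicle and day 7 against day 3. DESeq2 called 93, 0 and 133. The adjusted p of both Fut7 changes moved when single day 7 libraries were left out, and so did the number of all genes called. Those fits leave day 7 with 1 library and are no stronger evidence. Without the day 7 library labelled Cre-positive, the log2 changes from day 3 to day 7 were 1.26 for Fut4 and 0.77 for Chst2.

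The makeup of that class moved with the libraries as well: capillary-like cells held 1.19 CPM of Fut7. Their share was 16.9% to 31.3% in 5 libraries, and 54.2% in the remaining one, labelled Cre-negative at day 3. Against the remaining group alone, the day 3 change was -1.03 (SE 0.18, adjusted p = 0.0472) and that from day 3 to day 7 was 1.28 (SE 0.18, adjusted p = 0.024), where 0.901% and 1.86% of 12979 genes were called. That group changed in makeup too. The Fosb and Atf3 cluster was 18.0% and 39.2% of it at vehicle, 10.6% and 11.8% at day 3, and 24.7% and 14.6% at day 7, and the Penk and Esm1 cluster 24.4% and 17.1%, 34.4% and 30.1%, and 17.5% and 17.7%. Fut7 within the Fosb and Atf3 cluster was at 28.5 and 15.6 CPM at vehicle, 14.0 and 13.4 CPM at day 3, and 26.3 and 21.6 CPM at day 7. In the largest cluster, led by Prnd and Igfbp3, it was at 17.4 and 13.0, 9.16 and 7.40, and 20 and 17.4 CPM. The day 3 pair was the lowest in both, from 9 to 51 UMIs per library. The change from day 3 to day 7 differed between HEV-like and other blood endothelial-like cells by -0.75 (SE 0.22, adjusted p = 0.481). In the tests of such differences no member was called in any of the 4 contrasts, where 0% of 12990 genes were called for label, day 3 and day 7 against vehicle, and 0.0077% for day 7 against day 3.

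Of the other members, St3gal6 in HEV-like cells was at 420 and 477 CPM at vehicle, 350 and 299 CPM at day 3, and 354 and 441 CPM at day 7. Its change at day 3 was -0.47 (SE 0.16, adjusted p = 0.129). Fut4 was at 17.7 and 12.9, 10.3 and 10.3, and 14.4 and 14.7 CPM, a change of -0.57 (SE 0.22, adjusted p = 0.171). B3gnt3 was at 42.8 and 37.1, 54.2 and 49.5, and 39.5 and 48.0 CPM, a change of 0.37 (SE 0.15, adjusted p = 0.187). For all 3 the day 3 pair sat to 1 side of the other libraries, below for St3gal6 and Fut4 and above for B3gnt3, but none passed the threshold. The share of all genes whose day 3 pair did so was not counted. By edgeR's quasi-likelihood test 2696 of 11393 genes had an unadjusted p under 0.05 for day 3 against vehicle in HEV-like cells, as did 4 of the 9 members. In the other blood endothelial-like cells the changes were -0.39, -0.73 and 0.33, with adjusted p of 0.231, 0.26 and 0.217. For Fut4 there the adjusted p fell when either day 7 library was left out, in fits that leave day 7 with 1 library.

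Chst4, Chst2, St3gal4 and B4galt1 had no day 3 change with an unadjusted p under 0.05 in HEV-like cells. Their log2 changes were 0.31 (SE 0.24), -0.22 (SE 0.17), 0.19 (SE 0.17) and 0.14 (SE 0.18). Gcnt1 had a change of -0.64 (SE 0.35, adjusted p = 0.314), with the 2 vehicle libraries at 124 and 198 CPM on either side of the day 3 value of 142 CPM. Its direction rested on a single vehicle library: leaving out the one labelled Cre-negative made it -1.36 (adjusted p = 0.000115) and leaving out the other 0.24 (adjusted p = 0.565). At day 3 against vehicle Chst4 passed only without the vehicle library labelled Cre-positive, at 0.83 (adjusted p = 0.0169), and St3gal6 only without the one labelled Cre-negative, at -0.58 (adjusted p = 0.037). From day 3 to day 7 Gcnt1 passed without the vehicle library labelled Cre-negative or Cre-positive, at 0.53 each (adjusted p = 0.02 and 0.0174).

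**Figure D4:**
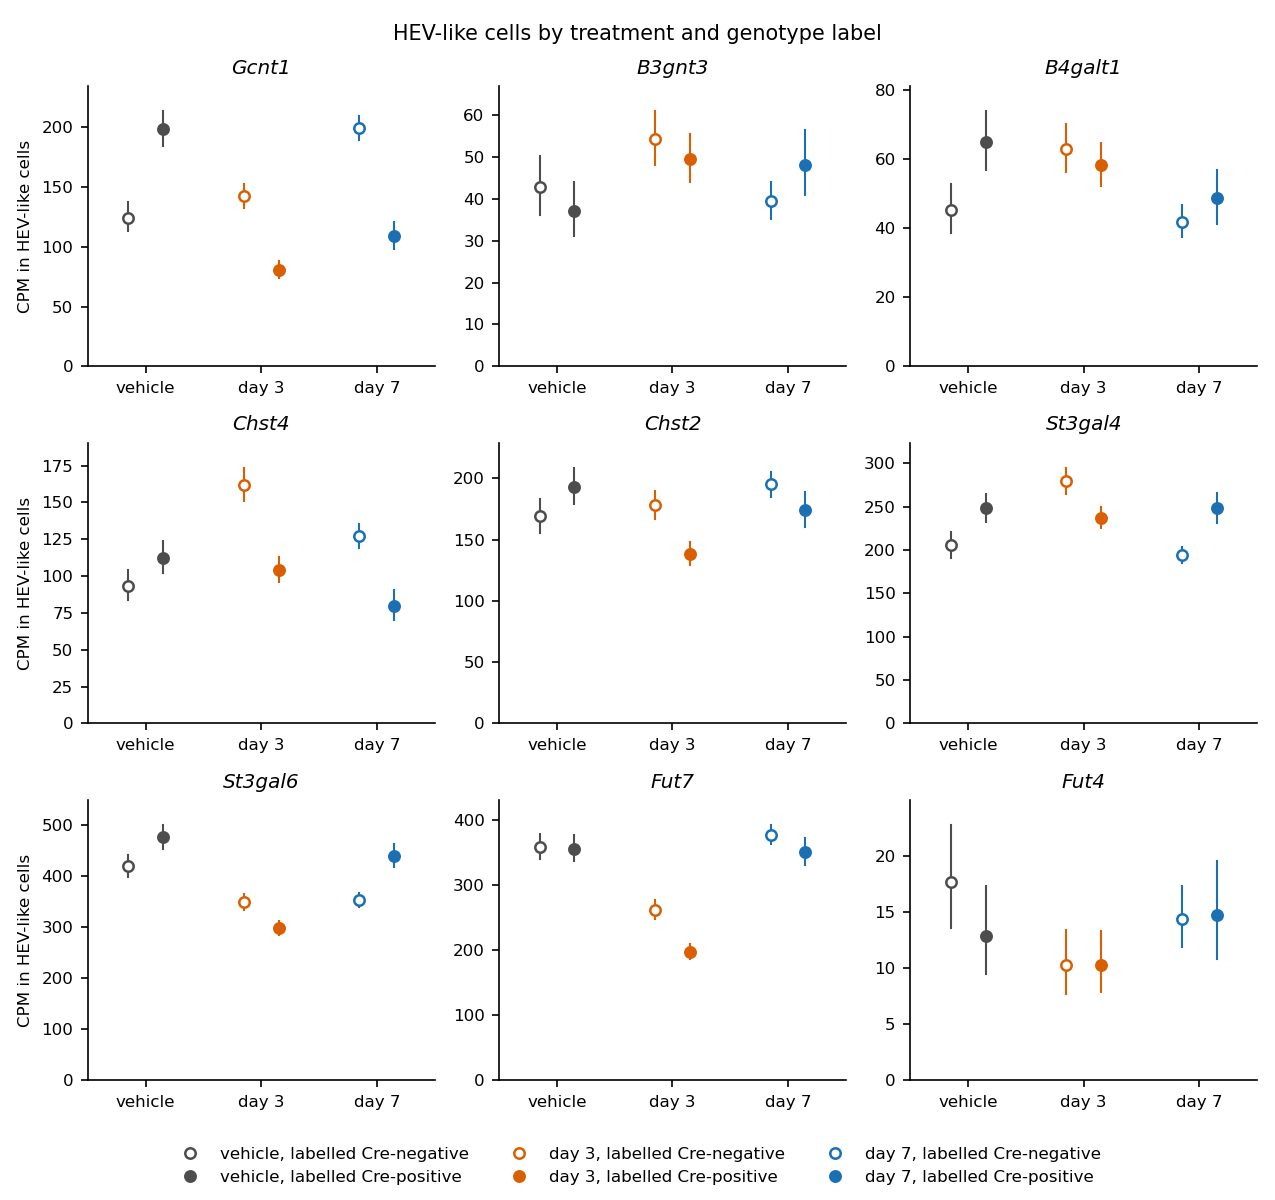
Level in CPM, vertical axis starting at 0, of each enzyme in HEV-like cells of each CD31 library by treatment; open points are libraries labelled Cre-negative, filled points libraries labelled Cre-positive, and bars are 95% Poisson intervals that cover counting error only. Fut7 is lowest in the 2 day 3 libraries, and Chst4 and Gcnt1 are higher in the library labelled Cre-positive at vehicle but lower in it at day 3 and day 7.

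The genotype label moved no member past the threshold in HEV-like cells, where edgeR's quasi-likelihood test called 0.0263% of 11393 genes, or in the other blood endothelial-like cells, where it called 0.00722% of 13843. No member had an unadjusted p under 0.05 in either class, and DESeq2 called 0 members too. Chst4 in HEV-like cells had a log2 change of -0.40 (SE 0.20, adjusted p = 1) and Gcnt1 of -0.39 (SE 0.29, adjusted p = 1).

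Both went 1 way at vehicle and the other way with oxazolone. At vehicle the library labelled Cre-positive was the higher one, for Chst4 at 112 against 93.5 CPM and for Gcnt1 at 198 against 124 CPM. At day 3 it was the lower one, at 104 against 162 CPM and 80.6 against 142 CPM, and at day 7 also, at 79.9 against 127 CPM and 109 against 199 CPM. Without the vehicle libraries, the pair that went the other way, the log2 change was -0.71 (SE 0.13) for Chst4 and -0.91 (SE 0.13) for Gcnt1. That fit leaves 1 residual degree of freedom and its direction was known from the values above, so it is a description. With 1 library per group, an effect of the label that differs by treatment and the spread between libraries cannot be told apart.

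The makeup of HEV-like cells moved with these levels. Glycam1-high cells were 42.8% and 52.1% of them at vehicle, 65.6% and 44.8% at day 3, and 60.3% and 37.2% at day 7, so the order within each treatment was that of Chst4. In the Glycam1-high group alone the label change of Chst4 was -0.17 (SE 0.15) and in the Glycam1-low group -0.40 (SE 0.20), each with an adjusted p of 0.999 or more. For Gcnt1 these were -0.28 (SE 0.24) and 0.14 (SE 0.16). Glycam1 itself was at 24400 and 20700, 25100 and 12600, and 76200 and 13600 CPM. The remaining 7 members had label changes in HEV-like cells between -0.21 for Fut7 and 0.15 for B4galt1, with standard errors of 0.12 to 0.18.

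**Figure D5:**
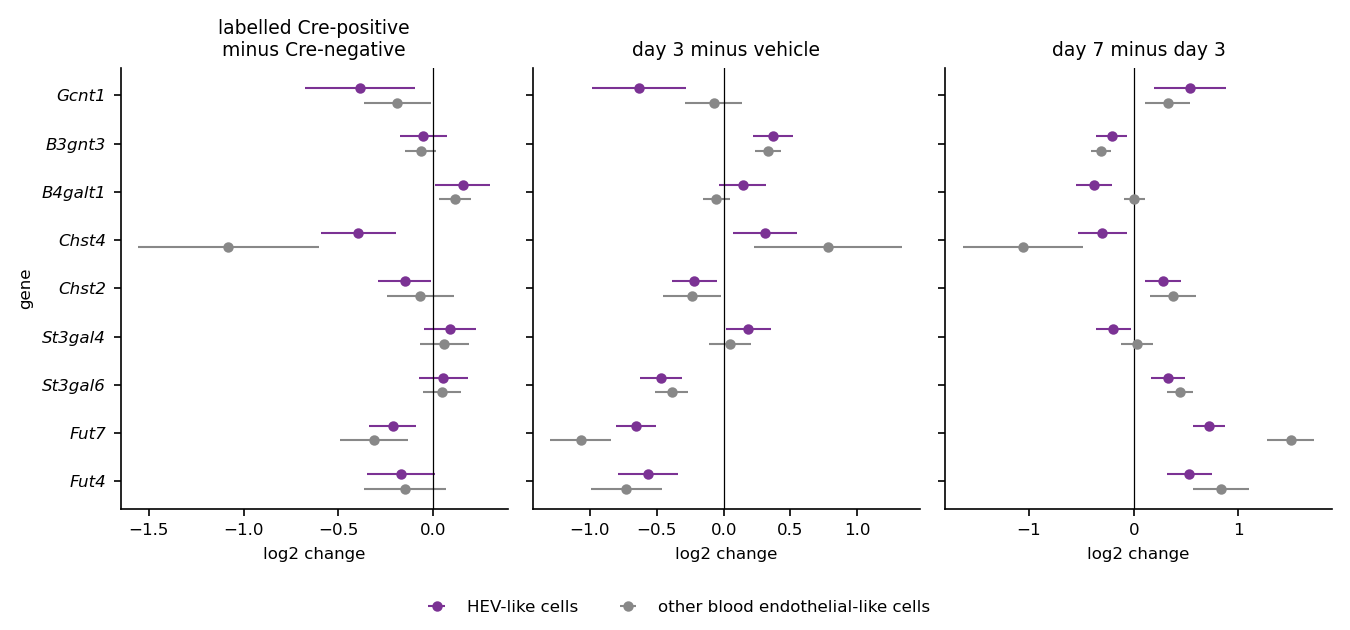
Log2 changes from the additive model, horizontal axis, for each enzyme in HEV-like (purple) and other blood endothelial-like cells (grey): Cre-positive minus Cre-negative labels, day 3 minus vehicle, and day 7 minus day 3; bars are standard errors. Fut7 lies left of 0 at day 3 and right of 0 from day 3 to day 7 in both classes, and no change shown passed the adjusted threshold.

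Other enzymes of O-glycan building, and the genes that supply their sugar and sulfate donors, were read from a list of 85 genes grouped by step. Of 72 tested between HEV-like and other blood endothelial-like cells, 27 were higher and 26 lower (53 of 72, against the 63.4% of all genes given above), with a median log2 difference of -0.06. Counts by step follow, and differences between steps were not tested. Of 10 genes for galactose and N-acetylglucosamine donors, 8 were higher and none lower, with a median of 0.63. They include Gfpt1, which opens the hexosamine pathway (115 against 36.7 CPM, log2 1.92), and Uap1, which makes the activated N-acetylglucosamine donor (115 against 50.5 CPM, log2 1.49).

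Of 5 sialic acid donor genes 2 were higher and none lower, and of 6 fucose donor genes tested 3 were higher and 2 lower. Of 8 sulfate donor genes 5 were higher and 1 lower, among them the sulfate transporter Slc26a2 (42.5 against 21.0 CPM, log2 1.33). Of 10 other sialyltransferases none was higher and 8 were lower, with a median of -0.86, such as St3gal5, which makes the ganglioside GM3 (7.36 against 39.7 CPM, log2 -2.10), and St3gal1, which caps core 1 (27.9 against 71.2 CPM, log2 -1.05). That is the opposite direction to St3gal4 and St3gal6. Of 8 other sulfotransferases Chst1, which sulfates galactose, was higher (41.5 against 6.79 CPM, log2 2.87) and 4 were lower, among them the tyrosine sulfotransferase Tpst1 (7.62 against 60.5 CPM, log2 -2.69). Of 6 other fucosyltransferases tested 2 were higher and 3 lower, with a median of -0.24. Fut2 was among the higher (9.92 against 1.68 CPM, log2 2.83). Fut8, the core fucosyltransferase of N-glycans, was among the lower (39.2 against 205 CPM, log2 -2.08). Of 3 other core 2 and branching enzymes listed, 1 was tested and was higher (log2 0.36).

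Of 10 genes that start O-glycans or form core 1, 1 was higher, Galnt12 (log2 2.54), and 5 were lower, including Galnt18 (log2 -1.21). Of 8 other lactosamine enzymes 4 were higher, including B4galt6 (log2 2.28) and B4galt5 (log2 1.43), and 3 lower, including B3gnt2 (log2 -1.23). With treatment, 3 of 70 listed genes were lower in HEV-like cells at day 3, where 0.746% of all genes were higher and 0.764% lower. They were Chst1, by -1.02 (adjusted p = 0.0496), St6galnac2, by -1.16 (adjusted p = 0.0417), and St6galnac3, which lies outside the rule for named genes and is named after its values were seen. From day 3 to day 7, where 0.29% of all genes were higher and 0.404% lower, 3 were higher: Chst1 by 1.21 (adjusted p = 0.0444), St6galnac2 by 1.17 (adjusted p = 0.0485) and again St6galnac3.

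The genes most like Chst4 across 34 classes, by Pearson correlation of mean log2(CPM + 1), were Oit1 (r = 0.965), Hamp (0.948), Serpina1e (0.924), Bpifb5 (0.908) and Tshr (0.906). Those most like Fut7 were Pglyrp1 (0.743), Dnase2b (0.735), Gm32461 (0.706), Oit1 (0.684) and Coro1c (0.677). The classes share libraries and free RNA, and the values are a description.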

How the data were processed

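The deposited files hold UMI counts per gene and barcode, unfiltered, that the authors made with Cell Ranger 7.0.1 on mm10, per the submitters' processing notes, while the matrix headers name Cell Ranger 4. Barcodes under 1000 UMIs, under 500 genes or over 10% mitochondrial UMIs were left out. Doublets were removed by the highest Scrublet scores at 0.8% per 1000 cells. In the day 3 CD31 library labelled Cre-positive the removed barcodes had a median of 2203 UMIs, against 3433 in those kept. In the vehicle CD31 library labelled Cre-negative these were 3932 and 4325 UMIs. Elsewhere the removed barcodes were the deeper ones. How many doublets stayed in each library was not tested. Each sorted fraction was clustered with scanpy 1.11.5 (2000 variable genes without the members and pathway genes, 30 components, Leiden resolution 1). Clusters were named from marker lists, with the naming limits set after the clusters' leading genes had been seen. The members, lists and tests were chosen with earlier results of these data known. Counts were summed per class and library, filtered with filterByExpr and tested with edgeR 4.0.16 in R 4.3.3 (quasi-likelihood test, TMM scaling, Benjamini-Hochberg adjustment, threshold 0.05), with library as a term between classes of 1 fraction, and genotype label plus treatment otherwise. DESeq2 1.42.0 was an alternative. On simulated data the test recovered 99% of genes changed by a log2 of 1 between HEV-like and other blood endothelial-like cells, and 82.5% for the label in HEV-like cells. The simulated counts had 1 fixed dispersion for all genes and no further spread between libraries or treatments. These shares therefore do not give the power of the test in the real libraries. CPM are counts scaled to a common total of UMIs per class and library, and are not compared between genes, since 3′ tags are counted. Intervals are 95% Poisson or Clopper-Pearson limits and cover counting error only. The pathway genes named in the text are the 20 with the largest absolute log2 differences among those called, of which 1 is not reported here. Total-count scaling, the Glycam1 division and leaving out capillary-, arterial- and venous-like cells were added after seeing the data.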

Additional observations from a re-analysis of the deposited data

Results flagged for a closer look

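St3gal6 in lymphatic endothelial-like cells was at 295 CPM in the vehicle CD31 library labelled Cre-positive and at 187 to 225 CPM in the other 5. The gap to the nearest library was 0.648 of the whole range, above Dixon's 95% critical value for 6 samples. Of 36 groups tested this was the only one, and chance alone marks about 1 in 20.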

How the results depend on the processing

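Between classes, members that passed the filter only through HEV-like sums are not counted here. Of the others, the 7 calls against lymphatic endothelial-like cells and the 7 against leukocytes held under every alternative run, and those against other blood endothelial-like cells numbered 6 or 7 of 8. Fut4 reversed, to -0.17, when capillary-, arterial- and venous-like cells were left out. For label and treatment, where no member was called, the number called changed under some alternatives. In HEV-like cells at day 3 against vehicle it was 1 with DESeq2 (293 of all genes, against 172) and 2 without the expression filter (1531). It was 1 with free RNA subtracted (279) and 2 in the Glycam1-low group alone (577). From day 3 to day 7 it was 1 with DESeq2 (136, against 79), 2 without the filter (949) and 2 in the Glycam1-low group (344). For day 7 against vehicle the log2 change of Gcnt1 was -0.84 without the vehicle library labelled Cre-negative. The number called for the label was 0 to 2 without 1 treatment, in fits with 1 residual degree of freedom. In other blood endothelial-like cells at day 3 the number was 1 without capillary-, arterial- and venous-like cells (117, against 0). From day 3 to day 7 it was 1 with DESeq2 (133, against 0), 1 without the filter (133) and 1 without those 3 classes (242). Leaving out single libraries also changed the number of members called, and with it the number of all genes called. Those fits leave a treatment with 1 library, so their counts are not set beside these. The cause was not tested.

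Mean levels of 8 members stayed within 1 SD in HEV-like cells when members were kept among the variable genes. In other blood endothelial-like cells 8 did with free RNA subtracted, 7 with doublets kept and 6 with members among the variable genes. In that last setting HEV-like cells numbered 1743 in place of 2827, and in the other class Fut7 moved from 8.97 to 34.7 CPM, Chst4 from 1.04 to 5.53 and Gcnt1 from 4.49 to 9.64. In lymphatic endothelial-like cells 7 did with free RNA subtracted and 7 with doublets kept, and in B cells 8 with free RNA subtracted. Counts over all genes ranged from 1 to 157 for the label in HEV-like cells, 17 to 1531 at day 3, 0 to 85 at day 7 and 7 to 949 from day 3 to day 7. In other blood endothelial-like cells they reached 47, 500, 42 and 473, in T cells 239, 64, 10 and 69, in B cells 334, 367, 59 and 396, and in the tests of differences between classes 43, 237, 19 and 173. For label and treatment, no paired analysis was possible because the labels give no replicate numbers and each group is 1 library. Between classes of a fraction the library itself was the block. With no replicate block for the library there, 7298 genes were called in place of 8239, and Fut4 lost its call (log2 0.385, adjusted p = 0.138).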
